A study of Homo sapiens with 6 samples.

Results

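Almost all mitochondrial proteins are made in the cytosol and must be carried into the organelle. The TOM complex lets precursors through the outer membrane, the SAM complex inserts barrel-shaped proteins into that membrane, the TIM23 channel and its ATP-driven motor move precursors with a cleavable presequence into the matrix, the TIM22 complex inserts carrier proteins into the inner membrane with the help of small soluble TIM chaperones, and CHCHD4 traps cysteine-rich proteins in the intermembrane space by forming disulfide bonds in them. The transcripts of this machinery were examined in MOLM13 cells, an acute myeloid leukemia line whose labels give a FLT3 internal tandem duplication and the translocation t(9;11)(p22;q23). Cells were treated for 24 h with the vehicle DMSO (3 libraries) or with 1 μM ZW27941 (3 libraries), a molecule that brings METTL3, the catalytic subunit of the RNA m6A writer, to the VHL ubiquitin ligase for degradation. Genes were chosen by symbol: all TOMM and TIMM genes with a number, SAMM50, MTX1, MTX2, DNAJC15, DNAJC19, PAM16, GRPEL1, HSPA9 and CHCHD4, which gave 33 of the 56305 genes in the count files. TIMM29, held in these files under the symbol C19orf52, was not matched and was counted with the partners of the translocases. Of the 33, 32 passed the filter on low counts and were tested. TOMM6, a small TOM subunit, was listed at 0 in all 6 libraries.

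The libraries held between 143454176 and 178744976 counts on genes. Levels are given as CPM, the counts of a gene relative to the TMM-scaled total of its library, as mean ± SD with n = 3 libraries unless each library is listed. Changes are log2 fold changes of ZW27941 against DMSO with their standard errors (SE), and a gene is said to rise or fall only where its edgeR quasi-likelihood p, adjusted over all 20399 genes tested by the Benjamini-Hochberg method, was under 0.05. The labels do not say whether libraries of 1 group came from separate cultures, so p-values measure the spread between these libraries, which may be technical. In bulk RNA, fewer cells of a kind and less RNA per cell cannot be told apart. All 7 myeloid markers checked (PTPRC, CD33, SPI1, FLT3, LYZ, CSF1R and CEBPA) were above 1 CPM in every library, and of 14 markers of other cells 12 stayed under 1 CPM in every library. Of the other markers, COL1A1 was near 1 CPM and PECAM1, which monocytes also express, ran from 254 to 332 CPM. The summed myeloid markers ran from 2689 to 2759 CPM in DMSO and from 2970 to 3043 CPM on ZW27941, the summed other markers from 257 to 266 CPM and from 325 to 334 CPM, and their part in the results was not tested. The METTL3 transcript was at 122 ± 1.17 CPM in DMSO and 123 ± 4.96 CPM on ZW27941 (n = 3 each), and since ZW27941 acts on the protein this level does not check the labels. ZW27941 replicate 3 had the largest share of reads aligned to several places, 5.25% against 3.63% to 4.07% in the other 5 libraries.

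The import genes moved in both directions, by small amounts. Of the 32 tested, 9 rose and 10 fell on ZW27941, so 59.4% were called. Of all genes tested, 30.1% were called, 16.3% as higher and 13.8% as lower (3333 higher and 2816 lower, or 2644 higher and 3643 lower with upper quartile scaling, under which 9 import genes were higher and 11 lower). Well-counted genes are called more often: among the 9558 genes with a mean of at least 10 CPM, 45.9% were called, and 63.3% of the 30 import genes at that level. Over the 32 import genes tested the median log2 fold change was −0.041, against −0.0019 over all genes tested, and without DMSO replicate 1 it was −0.0047. The changes ran from −0.17 for TIMM44 to 0.27 for TIMM17A, and 17 of the 19 called genes changed by less than 0.25 on the log2 scale. The 2 groups of libraries did not overlap in 19 of the 32 import genes tested, 9 with ZW27941 higher and 10 with ZW27941 lower, against 41.6% of all genes tested, 21.7% higher and 19.9% lower. Of the called genes, TOMM7 and TIMM17B overlapped, and TOMM70 and TIMM22 did not overlap but were not called.

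**Figure D1:**
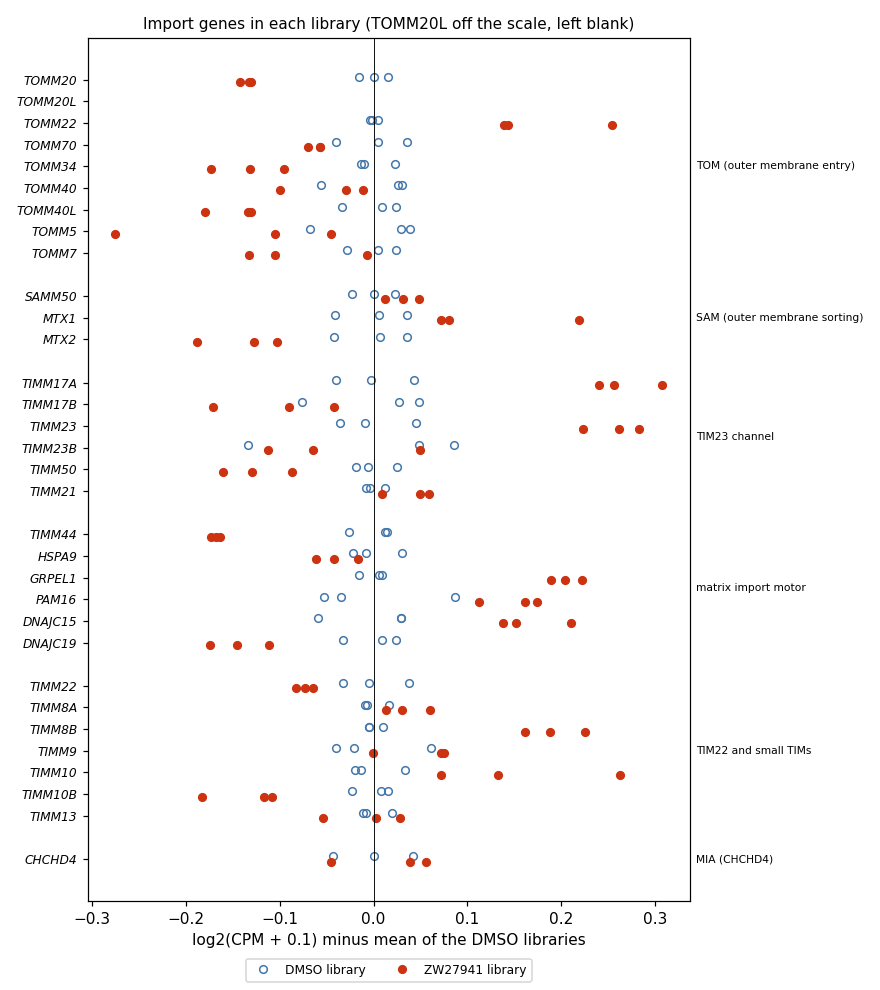
Level of 31 import genes in each library, as log2(CPM + 0.1) minus the mean of the 3 DMSO libraries, with open blue circles for DMSO and filled red circles for ZW27941 libraries. The ZW27941 libraries of TIMM17A, TIMM23 and GRPEL1 lay to the right of all DMSO libraries and those of TIMM44, TOMM20 and DNAJC19 to the left.

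The members of the machinery differed widely in level. Per kilobase of annotated exon in GENCODE v29, TOMM20 was highest in DMSO at 182 ± 1.97 CPM per kb (n = 3). TOMM7 followed at 74.4 ± 1.36 CPM per kb, HSPA9 at 53.1 ± 0.992 CPM per kb and TIMM13 at 50.7 ± 0.602 CPM per kb, and the DMSO libraries of these 4 genes did not overlap. Further down the order, TOMM40L at 10.4 ± 0.215 CPM per kb and CHCHD4 at 10.4 ± 0.308 CPM per kb could not be told apart. TOMM5 at 0.995 ± 0.0414 CPM per kb and TOMM20L at 0.208 ± 0.0884 CPM per kb were the lowest of the genes with counts. These values rest on the annotated exons, all of which need not be used in MOLM13.

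**Figure D2:**
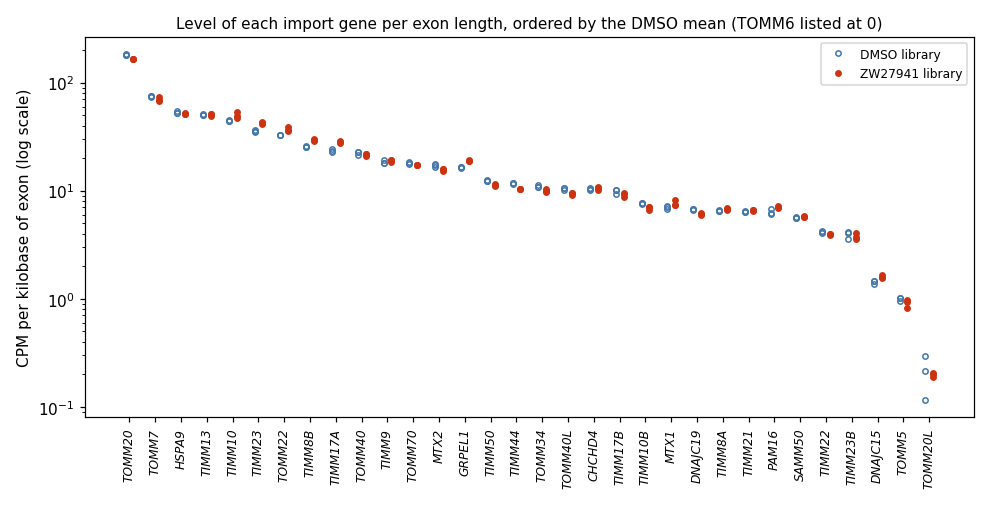
CPM per kilobase of exon (log scale) of 32 import genes in each library, ordered by the DMSO mean, with open blue circles for DMSO and filled red circles for ZW27941. TOMM20 lay near 182 in DMSO and TOMM20L near 0.208.

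At the outer membrane gate, the receptors TOMM20 and TOMM22 moved in opposite directions. Of the 9 TOM genes tested, 1 rose (TOMM22), 4 fell (TOMM20, TOMM34, TOMM40L and TOMM7) and 4 were not called. So 55.6% were called, against 30.1% of all genes tested and 45.9% of those with a mean of at least 10 CPM. TOMM20, the receptor that binds presequences, was at 643.6, 636.6 and 650.5 CPM in the DMSO libraries and at 582.8, 586.7 and 587.7 CPM on ZW27941. The groups did not overlap and lay apart, with a log2 fold change of −0.14 (SE 0.024, edgeR adjusted p = 1.51e-04). TOMM22, the central receptor that links TOMM20 to the pore, was at 71.4, 71.3 and 71.7 CPM in DMSO and at 79.0, 78.7 and 85.3 CPM on ZW27941. It rose by 0.18 (SE 0.030, edgeR adjusted p = 7.79e-05), with ZW27941 replicate 3 above the other 2. The pore itself, TOMM40, was at 80.3 ± 2.67 CPM and 77.7 ± 2.51 CPM (n = 3 each), with overlapping libraries, a log2 fold change of −0.046 (95% interval −0.11 to 0.015) and no call. TOMM40L, a second gene for a pore protein, was at 34.5, 34.8 and 33.5 CPM in DMSO and at 31.3, 30.2 and 31.2 CPM on ZW27941. All 3 treated libraries were lower, and the log2 fold change was −0.15 (SE 0.030, edgeR adjusted p = 6.93e-04). In GENCODE v29, 20.2% of the exon bases of TOMM40L are shared with other genes on either strand, among them NR1I3 on the opposite strand.

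TOMM70, the receptor for carrier precursors brought by cytosolic chaperones, was at 97.1 ± 2.58 CPM and 93.1 ± 0.490 CPM (n = 3 each), a log2 fold change of −0.062 (edgeR adjusted p = 0.0769). TOMM34, a cytosolic co-chaperone named with the TOM genes, fell by 0.13 on the log2 scale (SE 0.033, edgeR adjusted p = 0.00382), from 22.7 ± 0.314 CPM to 20.6 ± 0.556 CPM (n = 3 each). TOMM7, a small subunit that tunes the stability of the complex, was at 127.8, 130.8 and 132.5 CPM in DMSO and at 118.9, 121.1 and 129.7 CPM on ZW27941, so ZW27941 replicate 3 lay within the DMSO range. Its log2 fold change of −0.081 passed narrowly (SE 0.029, edgeR adjusted p = 0.0418) and lost its call without any of DMSO replicates 2 and 3 or ZW27941 replicates 1 and 2 (adjusted p from 0.111 to 0.221 in these 4 fits). Without ZW27941 replicate 3 it was −0.12. TOMM5, another small subunit, was at 3.63 ± 0.151 CPM and 3.28 ± 0.275 CPM (n = 3 each) and was not called (edgeR adjusted p = 0.191). TOMM20L had between 11 and 26 counts per library and was not called (edgeR adjusted p = 0.935). In GENCODE v29, 100% of the exon bases of TOMM6 also belong to another gene on the same strand.

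TOMM20 has pseudogenes that could take reads from it. TOMM20P4 was at 5.26 ± 0.182 CPM in DMSO and 4.35 ± 0.124 CPM on ZW27941 (n = 3 each), and it fell as the parent gene did, by 0.28 on the log2 scale (edgeR adjusted p = 0.00265). The longest identical stretch between the transcripts of TOMM20 and TOMM20P4 was 108 bases, so their reads are uncertain in part. Of the 33 pseudogenes named after import genes, 21 had no count in any library and 6 were tested.

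In the SAM complex, the metaxins moved in opposite directions around a steady core. SAMM50, which forms the barrel that folds other barrel proteins, was at 36.1 ± 0.581 CPM and 36.9 ± 0.466 CPM (n = 3 each) and was not called (log2 fold change 0.031, 95% interval −0.029 to 0.090, edgeR adjusted p = 0.468). MTX2, a metaxin on the cytosolic face, was at 30.3, 28.7 and 29.7 CPM in DMSO and at 27.02, 25.91 and 27.49 CPM on ZW27941, a log2 fold change of −0.14 (SE 0.033, edgeR adjusted p = 0.00239). MTX1, its partner metaxin, was at 23.44, 22.96 and 22.22 CPM in DMSO and at 24.0, 24.2 and 26.6 CPM on ZW27941. It rose by 0.13 (SE 0.038, edgeR adjusted p = 0.0154), without overlap. The call was lost without ZW27941 replicate 3 (log2 fold change 0.073, adjusted p = 0.133) and without DMSO replicate 3 (adjusted p = 0.0795). In GENCODE v29, 21.9% of the exon bases of MTX1 lie opposite exons of other genes, and no source used here states whether counting used strand.

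The strongest rises of the machinery were in the TIM23 channel. Of its 6 genes, TIMM17A and TIMM23 rose, TIMM50 and TIMM17B fell, and TIMM21 and TIMM23B were not called. The called share was 66.7%, against 30.1% of all genes tested and 45.9% of those with a mean of at least 10 CPM. TIMM17A (chr1:201955491-201970661 in GRCh38, GENCODE v29), which lines the path of the precursor, was at 84.9, 82.2 and 80.1 CPM in DMSO and at 97.3, 98.4 and 102 CPM on ZW27941. The libraries were well apart, at a log2 fold change of 0.27 (SE 0.028, edgeR adjusted p = 2.48e-07), a rise of 20.4%. TIMM17B (chrX:48893447-48898143), the paralog that takes the same place in a second form of the channel, was at 24.0, 26.2 and 25.8 CPM in DMSO and at 23.7, 22.4 and 24.5 CPM on ZW27941. These libraries overlapped, and the log2 fold change of −0.10 only just passed (SE 0.038, edgeR adjusted p = 0.0469). DESeq2 did not call it (adjusted p = 0.0703), nor did the fit scaled by library size only (adjusted p = 0.0731), nor the fits without DMSO replicate 2 or 3 or ZW27941 replicate 1 or 2 (adjusted p from 0.0777 to 0.235).

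TIMM17A and TIMM17B are shown by their promoter windows, because these genes of the same role moved apart. The windows hold 300 bases around the RefSeq transcription start in GRCh38.p14, most of them upstream, at chr1:201955253-201955552 on the plus strand and chrX:48897719-48898018 on the minus strand, and are read 5′ to 3′ along the gene. Capitals mark the longest stretch that both windows share, 14 bases that begin with ATG. This stretch starts at base 275 of the TIMM17A window and base 270 of the TIMM17B window, near the downstream end. It was not tested as a promoter element. Aligned end to end, 55.9% of the columns were identical. Among the other pairs aligned, TIMM23 and TIMM23B stood at 94.4% and the rest between 47.6% and 52.8%.
TIMM17A: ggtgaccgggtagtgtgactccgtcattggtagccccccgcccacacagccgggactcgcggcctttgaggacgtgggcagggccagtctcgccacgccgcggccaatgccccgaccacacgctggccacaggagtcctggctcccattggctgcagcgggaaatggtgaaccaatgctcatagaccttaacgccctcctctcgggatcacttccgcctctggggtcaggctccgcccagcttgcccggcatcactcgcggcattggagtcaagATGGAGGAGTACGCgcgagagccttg
TIMM17B: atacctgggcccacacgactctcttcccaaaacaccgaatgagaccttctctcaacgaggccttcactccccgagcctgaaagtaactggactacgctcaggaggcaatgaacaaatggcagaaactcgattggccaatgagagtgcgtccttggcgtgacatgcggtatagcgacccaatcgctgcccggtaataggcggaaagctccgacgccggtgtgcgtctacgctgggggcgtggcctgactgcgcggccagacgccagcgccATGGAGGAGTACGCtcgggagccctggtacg

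TIMM23 (chr10:45972449-46003734 in GRCh38, GENCODE v29), the partner of TIMM17 in the channel, was at 44.8, 43.1 and 42.3 CPM in DMSO and at 52.9, 50.7 and 52.1 CPM on ZW27941. All treated libraries were higher, with a log2 fold change of 0.26 (SE 0.029, edgeR adjusted p = 9.44e-07). TIMM23B (chr10:49942033-49974850), a duplicate of TIMM23 on the same chromosome, was at 12.7, 12.3 and 10.8 CPM in DMSO and at 12.3, 11.0 and 11.4 CPM on ZW27941. Its libraries overlapped and it was not called (log2 fold change −0.042, 95% interval −0.16 to 0.072, edgeR adjusted p = 0.613). The transcripts of TIMM23 and TIMM23B share an identical stretch of 144 bases, so how reads were split between them is uncertain.

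The promoter windows of TIMM23 and TIMM23B, a pair chosen after its values were seen, are printed because the genes differed in change while the windows were nearly alike, with 94.4% of aligned columns identical. They lie at chr10:45972239-45972538 and chr10:49941803-49942102 in GRCh38.p14, both on the plus strand. Capitals mark matches to CCGGAAG, the core bound by ETS factors, on either strand, of which each window holds 2.
TIMM23: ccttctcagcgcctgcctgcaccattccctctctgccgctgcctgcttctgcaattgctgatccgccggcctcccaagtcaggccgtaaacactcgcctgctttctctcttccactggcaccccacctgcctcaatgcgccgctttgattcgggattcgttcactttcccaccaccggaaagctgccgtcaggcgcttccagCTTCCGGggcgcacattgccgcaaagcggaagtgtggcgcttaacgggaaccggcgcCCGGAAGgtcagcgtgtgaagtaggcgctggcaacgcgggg
TIMM23B: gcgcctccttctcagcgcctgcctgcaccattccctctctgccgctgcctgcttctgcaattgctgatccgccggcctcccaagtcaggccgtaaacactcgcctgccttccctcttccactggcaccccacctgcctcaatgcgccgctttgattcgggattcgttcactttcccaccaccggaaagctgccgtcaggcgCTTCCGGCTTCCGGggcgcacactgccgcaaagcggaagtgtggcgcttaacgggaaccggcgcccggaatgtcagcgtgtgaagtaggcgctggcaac

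The letters CCGGAAG stood in 40% of the 30 import promoters matched in RefSeq, 12 of them, against 10.3% of all 35116 promoters. Among the 15557 promoters of tested genes the share was 15.99%. The same letters stood in 4 of the 7 matched promoters of genes that rose and in 4 of the 10 of genes that fell. The NRF1 motif, the site of a regulator of respiratory genes, stood in 20% of import promoters, 5.78% of all promoters and 9.23% of those of tested genes. For AAGATGGCG (YY1) these shares were 6.67%, 1.75% and 3.23%, and for CACGTG (E-box) 13.3%, 7.26% and 9.13%. Both strands were searched, none of these motifs contains another, and a match is a description of the letters, not of binding.

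TIMM50, the receptor that hands precursors from TOM to the TIM23 channel, was at 86.6, 84.8 and 84.0 CPM in DMSO and at 80.2, 76.2 and 77.8 CPM on ZW27941. It fell by 0.13 on the log2 scale (SE 0.027, edgeR adjusted p = 0.00104), without overlap. TIMM21, which couples the channel to the TOM complex and to respiratory chain assembly, was at 33.4 ± 0.243 CPM and 34.4 ± 0.634 CPM (n = 3 each) and was not called (log2 fold change 0.040, 95% interval −0.021 to 0.10).

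**Figure D3:**
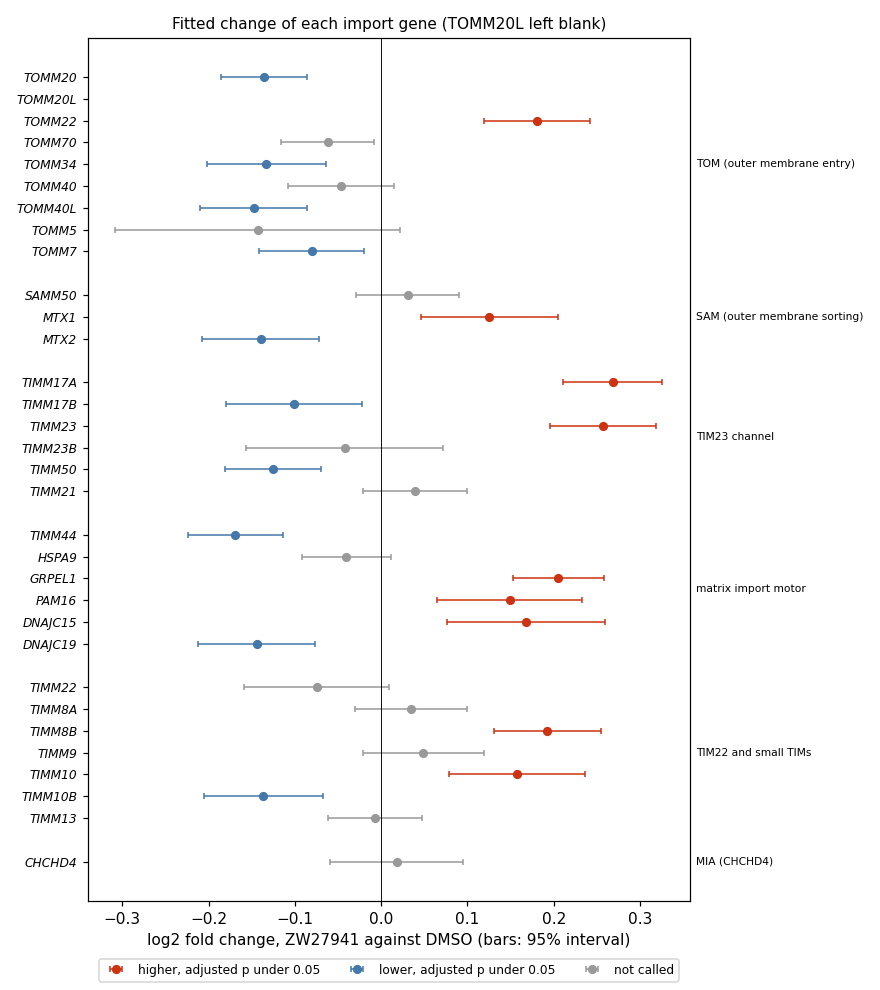
Log2 fold change of ZW27941 against DMSO with its 95% interval for 31 import genes, by place in the machinery, in red for genes that rose, blue for genes that fell and grey for genes not called. Every group but MIA held genes on both sides, from −0.17 (TIMM44) to 0.27 (TIMM17A).

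In the matrix motor, 5 of 6 genes were called, 3 higher and 2 lower. Beside this small set, 30.1% of all genes tested were called, and 45.9% of those with a mean of at least 10 CPM. HSPA9, the HSP70 chaperone whose ATP cycle pulls the chain inward, was the motor gene not called. It was at 447.2, 435.5 and 431.5 CPM in DMSO and at 419.7, 425.2 and 432.9 CPM on ZW27941, with overlap, a log2 fold change of −0.040 (95% interval −0.092 to 0.011) and edgeR adjusted p = 0.238. Its nucleotide exchange factor GRPEL1 (chr4:7058906-7068197) was at 69.1, 67.9 and 68.9 CPM in DMSO and at 79.1, 78.3 and 80.1 CPM on ZW27941, a rise of 15.3% (log2 fold change 0.21, SE 0.025, edgeR adjusted p = 2.37e-06). TIMM44 (chr19:7926718-7943920), which anchors HSPA9 to the channel, was at 57.4, 57.5 and 55.9 CPM in DMSO and at 50.5, 50.8 and 50.7 CPM on ZW27941. This was the largest fall among the import genes, by 0.17 on the log2 scale (SE 0.026, edgeR adjusted p = 4.52e-05). The 3 treated libraries of TIMM44 were within 1 CPM of each other and below all DMSO libraries.

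The J proteins that drive and restrain HSPA9 also split. PAM16, the J-like regulator that holds the active J protein in place, was at 15.2 ± 0.817 CPM and 16.8 ± 0.377 CPM (n = 3 each) and rose by 0.15 (SE 0.041, edgeR adjusted p = 0.00741). That call was lost without DMSO replicate 3 (adjusted p = 0.0624), and 21.9% of its exon bases in GENCODE v29 are shared with the read-through gene CORO7-PAM16, which was at 0 in all libraries. DNAJC19, a J protein of the channel, was at 23.5, 24.2 and 24.5 CPM in DMSO and at 21.8, 21.3 and 22.3 CPM on ZW27941. It fell by 0.14 on the log2 scale (SE 0.033, edgeR adjusted p = 0.00175), without overlap. DNAJC15, the other J protein of this kind, was at 11.0, 11.7 and 11.7 CPM in DMSO and at 13.2, 12.7 and 12.6 CPM on ZW27941. It rose by 0.17 (SE 0.044, edgeR adjusted p = 0.00562), again without overlap. The pseudogene DNAJC19P5, at 0.350 ± 0.0901 CPM and 0.223 ± 0.0199 CPM (n = 3 each), fell as well (edgeR adjusted p = 0.0440).

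The small TIM chaperones escort hydrophobic carriers across the intermembrane space as rings of TIMM9 with TIMM10 or of TIMM8 with TIMM13. Of the 7 genes of this branch, TIMM8B and TIMM10 rose, TIMM10B fell and 4 were not called. The called share was 42.9%, against 30.1% of all genes tested and 45.9% of those with a mean of at least 10 CPM. TIMM8B was at 29.8, 30.2 and 29.8 CPM in DMSO and at 34.12, 33.50 and 35.03 CPM on ZW27941, a rise of 14.3% without overlap (log2 fold change 0.19, SE 0.030, edgeR adjusted p = 3.84e-05). In GENCODE v29, 32.3% of its exon bases lie opposite exons of other genes, among them SDHD. Its ring partner TIMM13 was at 100 ± 1.188 CPM and 99.5 ± 2.87 CPM (n = 3 each), with a log2 fold change of −0.0071 (95% interval −0.062 to 0.048) and no call. Of the exon bases of TIMM13, 28.9% are shared with other genes on either strand. TIMM8A, the paralog of TIMM8B, was at 23.3 ± 0.231 CPM and 23.8 ± 0.393 CPM (n = 3 each) and was not called (log2 fold change 0.035, edgeR adjusted p = 0.441).

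TIMM10 was at 34.1, 35.2 and 33.9 CPM in DMSO and at 36.2, 37.7 and 41.3 CPM on ZW27941, with ZW27941 replicate 3 the highest. It rose by 0.16 (SE 0.038, edgeR adjusted p = 0.00295), and by 0.099 without ZW27941 replicate 3 (adjusted p = 0.0212). TIMM10B, a small TIM that sits on the TIM22 complex, was at 22.7, 23.3 and 23.2 CPM in DMSO and at 21.2, 21.4 and 20.3 CPM on ZW27941. This was a fall of 0.14 on the log2 scale without overlap (SE 0.033, edgeR adjusted p = 0.00317). In GENCODE v29, 13.6% of the exon bases of TIMM10B are shared with another gene on the same strand. TIMM9 at 27.6 ± 1.04 CPM and 28.6 ± 0.846 CPM, and the carrier channel TIMM22 at 13.3 ± 0.326 CPM and 12.6 ± 0.0840 CPM (n = 3 each), were not called (edgeR adjusted p = 0.306 and 0.178). Of the exon bases of TIMM9, 30.5% lie opposite exons of other genes, among them TOMM20L. CHCHD4, which oxidizes the small TIMs, was at 18.9, 18.4 and 17.8 CPM in DMSO and at 19.1, 17.8 and 18.9 CPM on ZW27941. Its libraries overlapped and it was not called (log2 fold change 0.018, 95% interval −0.060 to 0.095).

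Genes of like role were compared within each library by the log2 ratio of their counts, which does not depend on the scaling between libraries. In 8 of the 9 pairs the ratio of every ZW27941 library lay beyond that of every DMSO library. Of all single genes tested, 41.6% had groups that did not overlap, and the share among ratios of other gene pairs was not computed. With 3 libraries against 3, the exact two-sided permutation test cannot go below p = 0.1, which these 8 pairs reached (0.1125 after Benjamini-Hochberg adjustment over the 9 pairs), so none could pass. In 4 pairs the first gene rose and the second fell in the gene-wise test: TIMM17A and TIMM17B, TIMM10 and TIMM10B, DNAJC15 and DNAJC19, MTX1 and MTX2. The log2 ratio of TIMM17A to TIMM17B was 1.70 ± 0.104 in DMSO and 2.07 ± 0.0513 on ZW27941 (n = 3 each), a difference of 0.37. That of DNAJC15 to DNAJC19 went from −1.08 ± 0.0245 to −0.76 ± 0.0552, a difference of 0.31, so that the rarer gene of this pair by counts came closer to the other. The difference was 0.29 for TIMM10 to TIMM10B, 0.26 for MTX1 to MTX2 and 0.30 for TIMM23 to TIMM23B.

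GRPEL2, the second exchange factor and no member of the list chosen, was at 19.1 ± 0.157 CPM and 18.1 ± 0.120 CPM (n = 3 each) and was not called (edgeR adjusted p = 0.0939). The log2 ratio of GRPEL1 to GRPEL2 rose from 1.85 ± 0.0170 to 2.13 ± 0.0258, a difference of 0.28. The ratio of TOMM40 to TOMM40L differed by 0.10 and that of TIMM8A to TIMM8B by −0.16. That of TOMM20 to TOMM20L overlapped between the groups (exact permutation p = 0.8), with few TOMM20L counts behind it. Apart from TIMM23 and TIMM23B, the longest identical stretch between the transcripts of a pair was 32 bases, for TIMM17A and TIMM17B, and between 10 and 14 bases for the other 7 pairs.

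**Figure D4:**
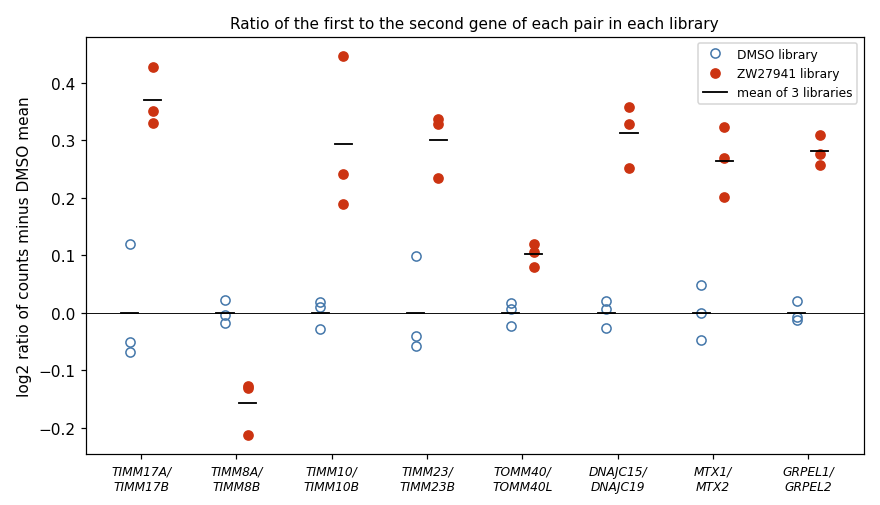
Log2 ratio of the counts of the first to the second gene of 8 pairs in each library, minus the mean of the DMSO libraries (open blue circles DMSO, filled red circles ZW27941, bars means of 3 libraries). In 7 pairs the treated libraries lay above the DMSO libraries, and in TIMM8A/TIMM8B, with a difference of −0.16, below them.

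Genes that work beside the translocases were counted in 4 lists, with 58 genes in all, of which 57 were tested. CHCHD3 and CHCHD6 stood in 2 of the lists and were counted in each, but only once in the total. Of these 57, 13 rose and 16 fell, 50.9% called against 30.1% of all genes tested. Among those with a mean of at least 10 CPM, 54% of 50 were called, against 45.9% of all genes at that level. Of the 19 genes for presequence cleavage, membrane insertion and partners of the translocases, 2 rose and 5 fell, so 36.8% were called. The median log2 fold change of these 19 was −0.068. TIMM29, under the symbol C19orf52, was among the 2 that rose (log2 fold change 0.15, SE 0.033, edgeR adjusted p = 0.00138). PMPCB, the catalytic subunit of the matrix processing peptidase that removes presequences, was at 70.7, 69.9 and 70.4 CPM in DMSO and at 60.4, 60.6 and 62.7 CPM on ZW27941 (log2 fold change −0.20, SE 0.026, edgeR adjusted p = 5.72e-06). MIPEP, a peptidase that trims some precursors further, fell by 0.15 on the log2 scale, and ATAD1, which pulls misplaced proteins out of the outer membrane, by 0.16 (edgeR adjusted p = 9.37e-04 and 1.72e-04).

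Of the 13 chaperones and proteases of the matrix, inner membrane and intermembrane space, 2 rose and 3 fell. So 38.5% were called, against 30.1% of all genes tested and 45.9% of those with a mean of at least 10 CPM. The median log2 fold change of the 13 was −0.0076. CLPB, a disaggregase of the intermembrane space, was at 42.8, 44.3 and 44.3 CPM in DMSO and at 53.8, 53.0 and 52.9 CPM on ZW27941 (log2 fold change 0.28, SE 0.028, edgeR adjusted p = 1.26e-07). TRAP1, the HSP90 of mitochondria, was at 183, 184 and 179 CPM in DMSO and at 155, 156 and 159 CPM on ZW27941 (log2 fold change −0.21, SE 0.024, edgeR adjusted p = 8.38e-07). In GENCODE v29, 29.3% of the exon bases of TRAP1 are shared with other genes on either strand. CLPX, the unfoldase of the CLPXP protease, fell by 0.14 on the log2 scale (edgeR adjusted p = 2.32e-04).

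The 20 tested proteins with twin CX9C motifs, a class of cysteine-rich proteins that includes known substrates of CHCHD4, held 9 genes that rose and 6 that fell, 75% called against 30.1% of all genes tested and 45.9% of those with a mean of at least 10 CPM, with a median log2 fold change of 0.024. CHCHD1, a subunit of the mitochondrial ribosome, was at 28.1, 27.4 and 28.5 CPM in DMSO and at 40.0, 39.3 and 41.9 CPM on ZW27941, the largest rise in these lists (log2 fold change 0.53, SE 0.032, edgeR adjusted p = 7.53e-11). COA4, an assembly factor of cytochrome c oxidase, rose by 0.28 (SE 0.029, edgeR adjusted p = 2.93e-07). COX19, also needed for that enzyme, fell by 0.24 on the log2 scale (SE 0.029, edgeR adjusted p = 2.16e-06), and 21.4% of its exon bases in GENCODE v29 belong to another gene as well. Of the 7 MICOS genes, which shape the cristae and contact the SAM complex, 3 fell and the other 4 were not called. So 42.9% were called, and the median log2 fold change of the 7 was −0.13. APOOL fell by 0.19, CHCHD3 by 0.13 and MINOS1, with 365 to 543 counts per library, by 0.29 on the log2 scale (edgeR adjusted p = 1.19e-04, 9.00e-04 and 0.0106).

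**Figure D5:**
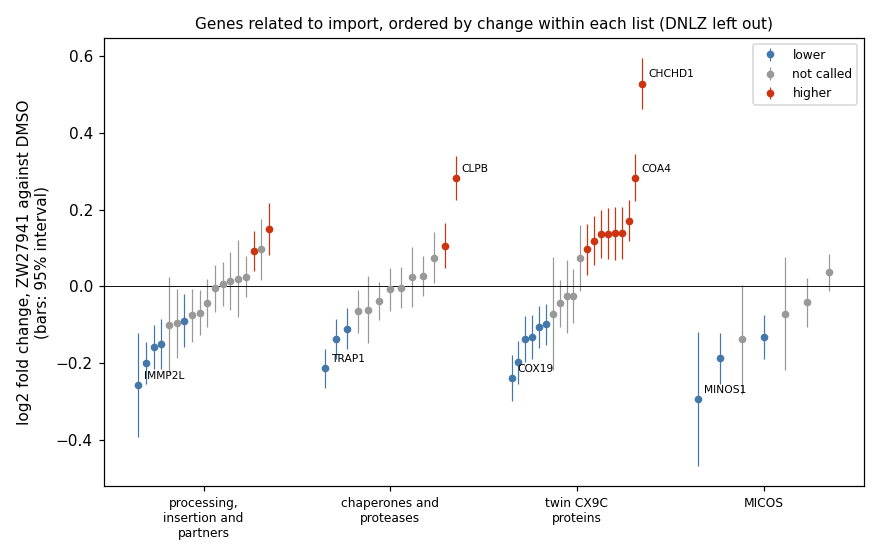
Log2 fold change of ZW27941 against DMSO with its 95% interval for the tested genes of 4 lists related to import, without DNLZ. Genes are ordered within each list (red higher, blue lower, grey not called). DNLZ, with 18 to 32 counts per library, was not called (log2 fold change −0.44, 95% interval −1.05 to 0.17). CHCHD1, at 0.53, stood above all others shown, and MINOS1, at −0.29, had a wide interval.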

How the data were processed

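RNA from MOLM13 cells was sequenced in 6 libraries, 3 treated with DMSO and 3 with 1 μM ZW27941 for 24 h. The authors deposited raw read counts per gene, 1 file per library, and the submitters' processing notes name HISAT2, SAMtools 1.19.2, HTSeq 2.0.3 and the build hg38. The strand setting and the annotation used for counting are not given in the sources used here. The 5 tallies of reads not assigned to a gene, 37.4% to 39.8% of the total, were left out of library sizes and tests, and files of the same group were not identical.

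Counts were fitted with edgeR 4.0.16 in R 4.3.3 (filterByExpr, TMM, glmQLFit, glmQLFTest), with Benjamini-Hochberg adjustment over the 20399 genes tested of 56305 and a threshold of 0.05. The SE is the absolute log2 fold change divided by the square root of F. The biological coefficient of variation was 3.11%. The fit was tested on simulated data with known changes and a fixed spread, as a check of the code. That test does not bear on whether libraries of 1 group came from separate cultures. Log2 ratios of gene pairs used counts plus 0.5 and the exact two-sided permutation test. Exon lengths, overlaps and coordinates come from GENCODE v29 (GRCh38), and promoter windows from RefSeq (GRCh38.p14).

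The members and lists were chosen with earlier results of these data known, and the motifs after values were seen. The genes named are all members past the threshold, both genes of each pair, HSPA9 and CHCHD4, and in each related list the 3 past the threshold with the lowest p. Members outside this rule are named so that each is accounted for, and TIMM29 because the choice by symbol missed it. The rule asked for protein sequences, which were not used here, and promoter windows are shown instead, for the pair with the largest difference and for TIMM23 and TIMM23B. Alternatives were other normalizations, DESeq2 1.42.0, the likelihood ratio test, other filters, a replicate block and each library left out.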

Additional observations from a re-analysis of the deposited data

How the results depend on the processing

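Each group had 3 libraries, with gene totals of at least 143454176 counts. TOMM20L, the rarest member with counts, had between 11 and 26 per library, and the part of depth in the calls was not tested. Of the import genes, between 8 and 11 were lower and 9 were higher under the other normalizations, filters and tests, and between 8 and 10 lower and between 7 and 9 higher with 1 library left out, the 7 without DMSO replicate 3. Requiring an unadjusted p under 0.05 and an absolute log2 fold change over 1, with no filter, left 0 higher and 0 lower. Their median log2 fold change ran from −0.047 to −0.0047 with 1 library left out, −0.014 without ZW27941 replicate 2. Over all genes, 6149 were called, 45.8% of them lower. Upper quartile scaling called 6287, 57.9% of them lower, and leaving out 1 library between 4836 and 6134. The calls of TIMM17B, TOMM7, MTX1 and PAM16 were lost under some alternatives, TOMM7 also when scaled by library size only (edgeR adjusted p = 0.0648). TOMM70 was called with upper quartile scaling (edgeR adjusted p = 0.0159) and without DMSO replicate 2 (adjusted p = 0.0391). Of genes not called, CHCHD4 changed sign with upper quartile scaling (−0.0056) and TIMM13 when scaled by library size only (0.0028). With 1 library left out, log2 fold changes ran from −0.0031 to 0.046 for CHCHD4, from −0.027 to 0.014 for TIMM13, from −0.11 to 0.0011 for TIMM23B and from −0.34 to 0.28 for TOMM20L. The log2 ratio of TOMM20 to TOMM20L differed by −0.46 to 0.20 in these fits. The cause was not tested.

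With the replicate number as a block, 9 import genes were higher, 10 lower and 6010 genes called in all. The deviations of libraries with the same number correlated at −0.014, 0.014 and 0.032, so the numbers were not taken as pairs.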
